A study of Mus musculus with 48 samples.

Results

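The effect of maternal separation (MS) on DNA methylation was examined in the amygdala of mice with 1 working copy of Tph2. The comparison rested on 16 of the 48 libraries of the series, 8 from separated Tph2+/- mice and 8 from unstressed Tph2+/- controls (C), chosen by the genotype and condition in their labels, and on all 187695 loci of the count table. All 16 animals were heterozygous males at 4 months of age, on the C57BL/6 background per the labels and from parents backcrossed on C57BL/6N per the study's methods. Separated pups spent 3 h per day away from the dam from postnatal day 2 to 15, while control pups were reared in the standard way. The question was whether early separation leaves a trace in the adult methylome when the capacity for brain serotonin synthesis is reduced. Libraries of Tph2+/+ mice (8 MS, 8 C) and Tph2-/- mice (6 MS, 8 C) entered the same model, and their own MS effects were read beside that of Tph2+/- mice.

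Several features of the animals limit what a group stands for. The Tph2 null allele was present in every cell from conception, and both parents were Tph2+/-. Whole litters were assigned to MS or C, the labels do not name the litter of a mouse, and littermates within a group cannot be told from unrelated animals. Since such parents have pups of all 3 genotypes, mice of the other genotypes can be littermates of these animals under the same condition. The males were housed singly after weaning and had been through behavioural tests before tissue was taken. The amygdalae of both hemispheres were powdered together, so each library averages over all nuclei and cell types of this structure, and a changed share of a cell type cannot be told apart from changed methylation within cells. No gene expression marker checks the dissection in DNA data.

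Tph2 encodes tryptophan hydroxylase 2, the rate-limiting enzyme of serotonin synthesis in neurons of the brainstem raphe, whose fibres reach the amygdala, a structure for fear and social behaviour. DNA methylation in mammals sits mainly on cytosines of CpG dinucleotides, is dense over gene bodies, repeats and intergenic DNA, and is low at most CpG island promoters. Capture with a methyl-CpG-binding domain (MBD) enriches fragments with several methylated CpGs, and the read count of a locus therefore depends on its methylation, its CpG content, its base composition and its copy number.

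Totals of the 16 libraries lay between 7.72 and 14.1 Mcounts (mega-counts), with 8.98 to 14.1 Mcounts in MS and 7.72 to 12.99 Mcounts in C, and the median locus held 27 counts per library. A single locus of repeated sequence on chromosome 9 held 13.99 to 24.97% of the counts of a library. MS replicate 1 stood apart from the other libraries in several measures given below. In the labels the C libraries carry sample numbers 3 to 17, 45 and 47 and the MS libraries 22 to 39, so that no run of numbers holds both conditions, and sample order and MS cannot be told apart.

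Differences were measured as log2 fold changes of MS against C with edgeR's quasi-likelihood test, and a locus was called when it passed the study's own criteria, which are a p below 0.01 before adjustment and a change of over 0.2 on the log2 scale. The windows of 200 bases below are examples picked by hand and do not stand for the called loci as a set. They are the stretches with the most CpGs inside 4 loci called higher and 4 called lower in MS, with 2 loci (Cntfr and Gm49554) shown because they moved the same way in all 3 genotypes and the others because they are among the loci of smallest p. Bases are from the forward strand of GRCm38 (RefSeq), and CpGs are in capitals.
near Klhdc7a (chr4:139990265-139990464): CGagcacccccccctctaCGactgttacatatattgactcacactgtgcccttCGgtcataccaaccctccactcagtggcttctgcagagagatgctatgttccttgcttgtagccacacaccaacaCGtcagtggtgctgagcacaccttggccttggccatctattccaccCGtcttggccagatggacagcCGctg
Grm7 intron (chr6:111013555-111013754): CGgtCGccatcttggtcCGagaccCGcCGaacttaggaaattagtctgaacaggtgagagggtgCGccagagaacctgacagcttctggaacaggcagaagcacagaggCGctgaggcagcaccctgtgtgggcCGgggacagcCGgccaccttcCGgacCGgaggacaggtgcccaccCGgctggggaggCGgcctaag
Gm20388 intron (chr8:123585406-123585605): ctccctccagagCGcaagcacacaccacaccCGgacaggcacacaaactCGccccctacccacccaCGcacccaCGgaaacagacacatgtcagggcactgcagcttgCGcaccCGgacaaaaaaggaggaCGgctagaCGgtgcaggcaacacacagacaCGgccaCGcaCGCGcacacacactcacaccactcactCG
Cntfr intron (chr4:41681859-41682058): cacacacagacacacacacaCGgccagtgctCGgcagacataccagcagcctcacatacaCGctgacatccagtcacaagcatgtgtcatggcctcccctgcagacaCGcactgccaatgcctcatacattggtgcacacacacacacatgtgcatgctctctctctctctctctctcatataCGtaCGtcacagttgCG
Galnt16 intron (chr12:80524961-80525160): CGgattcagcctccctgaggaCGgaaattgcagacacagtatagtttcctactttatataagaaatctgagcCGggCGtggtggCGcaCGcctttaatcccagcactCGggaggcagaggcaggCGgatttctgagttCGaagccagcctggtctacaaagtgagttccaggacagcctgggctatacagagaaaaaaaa
Zfp804b intron (chr5:7055322-7055521): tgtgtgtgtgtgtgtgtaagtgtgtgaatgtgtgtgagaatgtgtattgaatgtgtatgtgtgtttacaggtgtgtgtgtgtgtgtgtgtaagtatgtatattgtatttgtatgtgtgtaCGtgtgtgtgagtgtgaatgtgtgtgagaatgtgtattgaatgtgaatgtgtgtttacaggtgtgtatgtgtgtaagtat
near Gm9348 (chr14:110985185-110985384): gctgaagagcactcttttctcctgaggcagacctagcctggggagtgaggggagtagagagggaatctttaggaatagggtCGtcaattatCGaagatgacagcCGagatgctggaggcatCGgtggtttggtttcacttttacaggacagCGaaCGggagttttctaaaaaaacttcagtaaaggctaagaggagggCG
near Gm49554 (chr16:3120573-3120772): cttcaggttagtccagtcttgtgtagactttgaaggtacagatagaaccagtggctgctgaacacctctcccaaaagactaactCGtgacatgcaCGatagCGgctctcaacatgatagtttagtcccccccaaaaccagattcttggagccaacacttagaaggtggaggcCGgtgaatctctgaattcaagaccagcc

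The first 4 windows, from loci called higher, held 6 to 14 CpGs and 54.0 to 65.0% G and C. The last 4, from loci called lower, held 1 to 9 CpGs and 37.5 to 51.5% G and C. These values follow from the choice of loci and of their CpG-richest stretches. All loci called higher had a median GC content of 49.4%, and a higher locus of small p in Hdac9, not shown, had 41.4%. The Zfp804b window is mostly TG repeats with 1 CpG, and the Gm20388 window belongs to a repeated block described below.

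In Tph2+/- mice 1462 loci were called, 0.779% of all loci, where an unadjusted p under 0.01 is expected at 1% of unchanged loci. Of these, 602 were higher in MS (0.321% of all loci) and 860 lower (0.458%). That split depended on scaling, since total counts in place of TMM gave 1089 higher and 394 lower. No locus reached a Benjamini-Hochberg adjusted p under 0.05 in edgeR, and 0 did so with DESeq2 or with limma voom. At an unadjusted p under 0.05 there were 8184 loci, 4.36% of all, against 12241 (6.52%) in Tph2+/+ and 13347 (7.11%) in Tph2-/- mice, where 5% are expected without change. The calls below therefore describe where the strongest differences of these 16 libraries lay, and no single locus is shown to differ. The smallest adjusted p was 0.453 in edgeR, at loci of Galnt16 and Fzd7, against 0.158 in DESeq2 and 0.783 in limma voom. Called loci had a median size of 0.64 on the log2 scale (range 0.25 to 3.51), set against a median standard error of 0.22. The median absolute log2 fold change over all loci was 0.14.

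Base composition separated the 2 directions. Loci called higher in MS had a median GC content of 49.4%, loci called lower 43.6%, and all loci 47.3%. In the lowest decile of loci by GC content (up to 41.8%), 285 loci were called (1.52%), of which 95.4% were lower and 13 loci higher. In the highest decile (above 53.4%), 130 were called (0.693%), 21 lower and 109 higher. Over all loci, called or not, the median log2 fold change went up with every step from the lowest decile (-0.11) to the highest (0.09). These are counts over loci of the same 16 libraries and carry no test, since loci are not replicates.

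**Figure D1:**
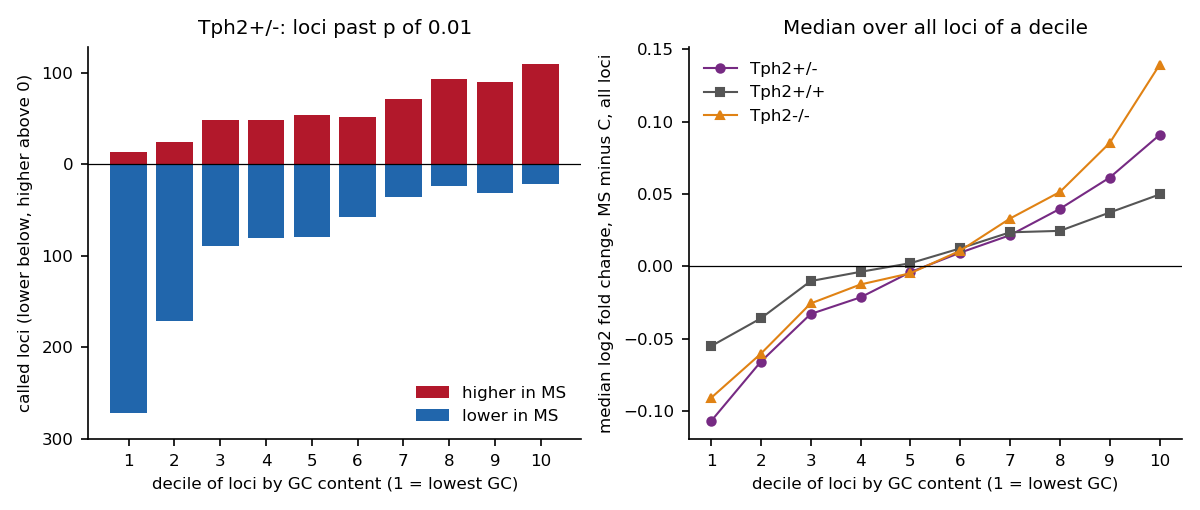
Left, number of loci called higher (above 0) and lower (below 0) in MS in Tph2+/- mice, by decile of all loci ordered by GC content. Right, median log2 fold change of MS against C over all loci of a decile, for each genotype. Lower calls made up 95.4% of the 285 calls of the first decile and numbered 21 in the last, while higher calls went from 13 to 109, and the medians of all 3 genotypes went from below to above 0.

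The order by GC content held within other classes of loci. Among loci with a mean count under the median, 194 of the GC-poorest decile were called lower and 12 higher, and among the more abundant ones 78 and 1. Among intergenic loci of that decile 145 were lower and 6 higher, and among intronic loci 110 and 7. Within the GC-richest decile, higher calls outnumbered lower calls at intronic loci (48 and 9), at intergenic loci (14 and 5), at repeat-rich loci (13 and 1) and at repeat-poor loci (96 and 20). In these Tph2+/- libraries CpG density gave a flatter split of calls than GC content. The CpG-poorest decile held 61 higher and 149 lower calls, and the CpG-densest decile 52 and 26. Where CpG density was at or over its median but GC content was in the lowest decile, 59 loci were called lower and 3 higher.

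The median also went up with GC content in the other genotypes, whose libraries are not shared with this comparison. In Tph2+/+ mice 2465 loci were called (1.31%), 1258 higher (0.67%) and 1207 lower (0.643%), and in Tph2-/- mice 2769 (1.48%), 1582 higher (0.843%) and 1187 lower (0.632%). In Tph2+/+ mice the median log2 fold change went from -0.06 in the GC-poorest decile to 0.05 in the GC-richest, and in Tph2-/- mice from -0.09 to 0.14. In Tph2+/+ mice 221 loci of the GC-poorest decile were called lower and 85 higher, while in the GC-richest decile 97 were higher and 75 lower. In Tph2-/- mice 360 loci of the GC-richest decile were called higher and 25 lower, and 47 of the GC-poorest were higher. By CpG density, the densest decile had a median of 0.16 in Tph2+/+ mice (306 higher and 33 lower calls) and 0.21 in Tph2-/- mice (453 and 18). In the CpG-poorest decile the medians were 0.01 and -0.05. In both of these genotypes the CpG-densest decile thus had a higher median than the GC-richest. Whether the dependence on GC content or CpG density was equal between genotypes was not tested. In all 3 genotypes the MS libraries were also set apart from C by sample number.

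Each library was then given a GC slope, the change of its log2 counts per SD of GC content (4.55 percentage points) with each locus centred over the libraries. In MS the slope ran from -0.0445 to 0.137 with a median of 0.00177, and in C from -0.0818 to 0.000152 with a median of -0.0244. The highest value belonged to MS replicate 1, the next was 0.0495 in MS replicate 8, and the groups overlapped. Means were 0.0166 ± 0.0583 in MS and -0.0287 ± 0.0265 in C (SD, n = 8 each), and the difference of 0.0453 had a p of 0.0507 in a 2-sided exact permutation test over 12870 regroupings, adjusted to 0.179 over 19 library measures. Without MS replicate 1 the difference was 0.0281 (exact permutation p of 0.100). Without sample numbers 18 to 26 and 42 to 48, which left 6 libraries per group, it was 0.0218 (exact permutation p of 0.290). In Tph2+/+ mice the slope was 0.00889 ± 0.0389 in MS and -0.0188 ± 0.0348 in C (SD, n = 8 each; exact permutation p of 0.153), and in Tph2-/- mice 0.0425 ± 0.0948 (n = 6) and -0.00981 ± 0.0279 (n = 8; exact permutation p of 0.169).

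MS replicate 1 also had the highest CpG slope of its group (0.149, against 0.0252 for the next library) and the largest share of counts in the GC-richest decile of loci (15.9%, against 11.8%). Leaving it out took the calls in the GC-poorest decile from 285 to 184, of which 169 were lower and 15 higher, and those in the GC-richest decile from 130 to 97, of which 73 were higher and 24 lower. The order of the directions thus held without this library. An offset fitted by loess on GC content in each library, a setting chosen after seeing the data, takes the dependence on GC content out of each library by construction, so the split of directions under it is no test of that dependence. With that offset 1191 loci were called in all, 51.5% of the calls in the GC-poorest decile were lower and 44.2% of those in the GC-richest decile were higher.

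**Figure D2:**
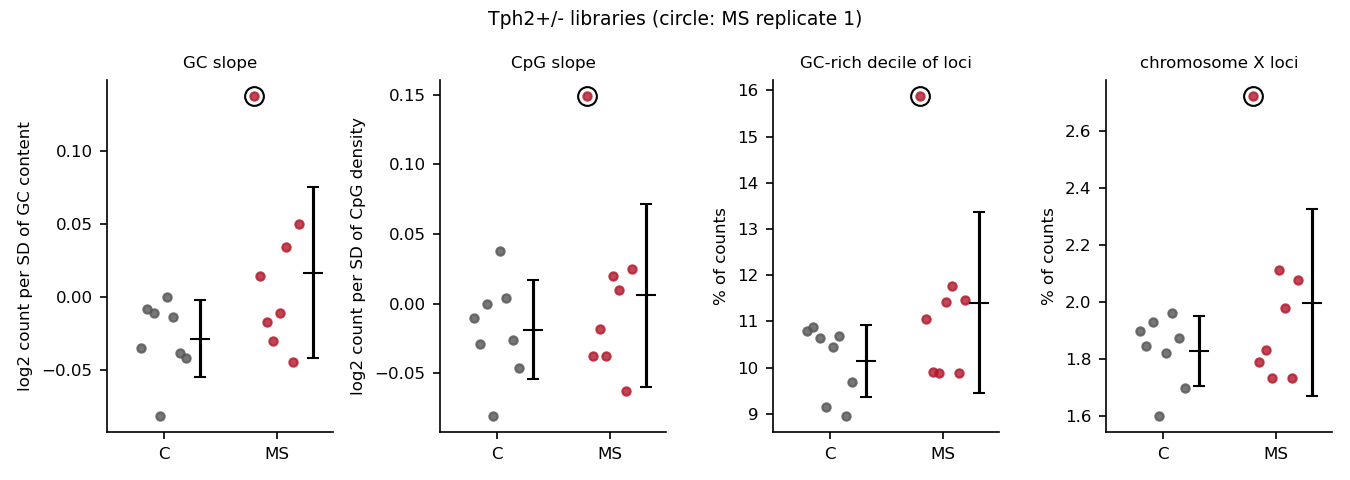
GC slope, CpG slope, percent of counts in the GC-richest decile of loci and percent of counts in chromosome X loci for each Tph2+/- library, with the mean and SD of the 8 C and 8 MS libraries beside the points. The circled point is MS replicate 1, which is the highest in all 4 panels (0.137, 0.149, 15.9% and 2.72%).

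Shares of counts were compared between the groups by the same exact permutation test. The GC-poorest decile of loci, which includes the locus on chromosome 9, held 22.9 to 35.7% of counts in MS and 31.1 to 37.9% in C, with medians of 30.1 and 33.3%. The groups overlapped, with 5 of 8 MS libraries below all C libraries. The difference of means was -3.57 percentage points (exact permutation p of 0.0342, adjusted to 0.179), and without MS replicate 1 it was -2.53 (exact permutation p of 0.0693). Without sample numbers 18 to 26 and 42 to 48 it was -1.62 (exact permutation p of 0.253, n = 6 each). In Tph2+/+ mice the share was the larger one in MS, at 33.7% against 31.1% in C (difference 2.64 percentage points, exact permutation p of 0.0165), and in Tph2-/- mice the difference was -0.488 (exact permutation p of 0.778). Without the loci that each held over 0.5% of counts, this decile held 6.03 ± 0.661% in MS and 6.65 ± 0.327% in C (SD, n = 8 each; exact permutation p of 0.0143, adjusted to 0.229 over 16 measures).

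Intronic loci held 50.5 ± 2.29% of counts in MS and 52.4 ± 1.20% in C (exact permutation p of 0.0477, adjusted to 0.179), and intergenic loci 36.8 ± 1.98% and 35.02 ± 1.10% (exact permutation p of 0.0359, adjusted to 0.179; SD, n = 8 each). Without MS replicate 1 the differences were -1.15 and 1.15 percentage points (exact permutation p of 0.0987 and 0.0715). Without loci over 0.5% of counts they came to -0.216 and 0.122 percentage points (exact permutation p of 0.503 and 0.752). None of the 19 library measures passed an adjusted p under 0.05. The total count, 11.3 ± 1.46 Mcounts in MS and 9.93 ± 1.66 in C (SD, n = 8 each), gave an exact permutation p of 0.110.

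Called loci lay in all gene parts in about the shares that the table offered. Intergenic loci made up 46.2% of calls and 45.8% of all loci, introns 42.3 and 40.6%, coding exons 7.11 and 8.42%, untranslated exons 2.05 and 1.67% and noncoding exons 2.39 and 3.598%. By direction, coding exons, at 0.658% called, had 67 higher and 37 lower calls and, with TMM scaling, were the only gene part with more higher than lower calls. Introns had 260 and 358, intergenic loci 246 and 429, untranslated exons 13 and 17 and noncoding exons 16 and 19.

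**Figure D3:**
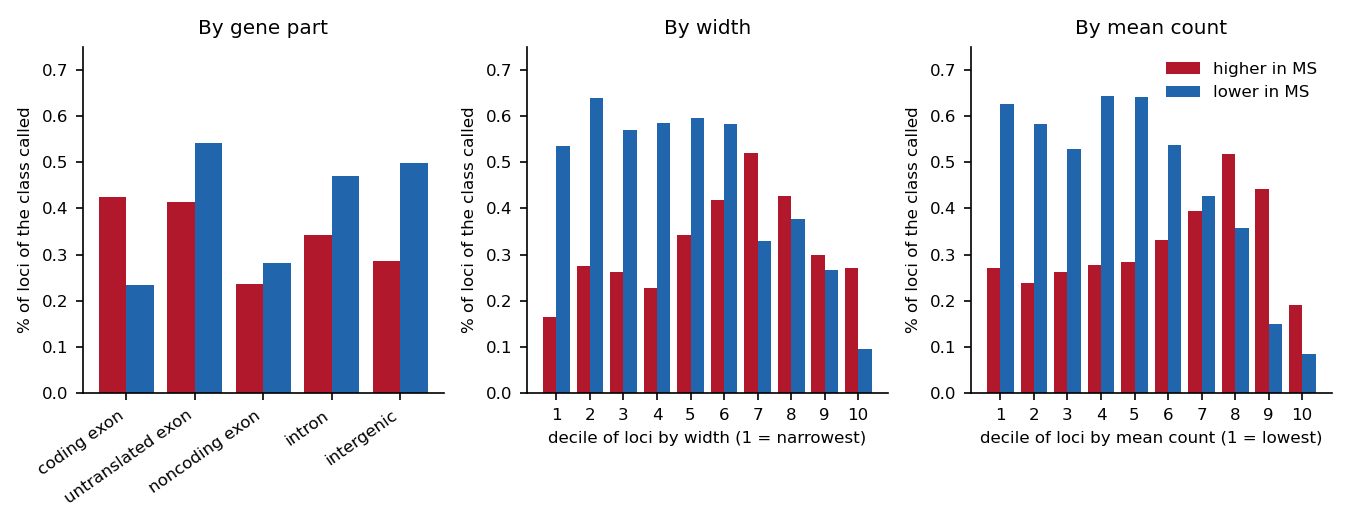
Percent of the loci of a class called higher or lower in MS in Tph2+/- mice, by gene part of the locus centre, by decile of locus width and by decile of mean count. With TMM scaling, lower calls were the more frequent at narrow and at weakly covered loci, and the widest and most abundant deciles had the fewest lower calls (18 and 16).

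Starts of protein-coding genes did not stand out in frequency. Within 1 kb of a start 29 of 3907 loci were called (0.742%), 19 higher and 10 lower. At 1 to 5 kb there were 65 higher and 41 lower calls, at 5 to 20 kb 154 and 173, at 20 to 100 kb 207 and 330, and farther away 157 and 306. The percent called stayed between 0.742 and 0.824% in these distance classes. Beyond 1 kb the share of higher calls went from 61.3% at 1 to 5 kb to 33.9% in the farthest class, with TMM scaling. Loci over a start itself, which are part of the first class, had 5 higher and 5 lower calls.

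Width and abundance went together. Directions by width, by mean count and by distance to a start are given with TMM scaling only. Of the 132 calls in the narrowest decile (331 to 629 bp) 31 were higher, and the widest decile had 51 higher and 18 lower calls, with 0.368% called. By mean count, the lowest decile had 51 higher and 118 lower calls. The most abundant decile had 36 and 16, with 0.277% called, although its median standard error was the smallest (0.14 against 0.30 in the lowest decile). The median log2 fold change went from -0.05 in the lowest decile to 0.07 in the highest.

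Calls were spread over all chromosomes. Per chromosome, 0.603% (chromosome 18) to 1.01% (chromosome Y) of loci were called, and per quintile of chromosome length 0.733 to 0.813%. On chromosome X 21 of 3073 loci were called, 11 higher and 10 lower, but the median of all its loci was 0.08 in Tph2+/- mice, 0.15 in Tph2+/+ and 0.16 in Tph2-/- mice, against 0.00, 0.00 and 0.01 on autosomes. The share of counts on X was 1.73 to 2.72% in MS (median 1.90%) and 1.598 to 1.96% in C (median 1.86%). MS replicate 1 gave the 2.72%, the next library 2.11%, and the difference of means had an exact permutation p of 0.193.

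Named loci follow a fixed rule, led by the 12 of smallest p in each direction. Of these 24, 12 lay in introns and 8 between genes, their GC content ran from 34.5 to 59.8%, and they held a mean of 9.39 to 59.7 counts. All 24 kept an unadjusted p under 0.01 when any single library was left out and with the GC offset. Their choice by smallest p in these same libraries favours that outcome, so it is no support for a change at these loci. Levels are given as counts per Mcount after TMM scaling (CPM), as lowest, median and highest of the 8 libraries of a group.

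Among the loci called lower, the smallest p belonged to an intron of Galnt16, which encodes an enzyme that starts mucin-type O-glycosylation (chr12:80524853-80525617). It held 0.996, 2.22 and 2.76 CPM in C and 0.193, 0.811 and 1.16 in MS. All MS values lay under the C median and 6 under the lowest C value. The log2 fold change was -1.40 (SE 0.29, unadjusted p of 3.91e-06, adjusted p of 0.453 in edgeR). In Tph2+/+ mice it was -0.79 (unadjusted p of 0.00457) and in Tph2-/- mice -0.28 (unadjusted p of 0.327).

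An untranslated exon of Fzd7, a Wnt receptor, held 1.54, 3.605 and 4.48 CPM in C and 1.02, 1.62 and 2.94 in MS (chr1:59486429-59487272, log2 fold change -1.04, SE 0.22). The groups overlapped, with 4 MS libraries below all C libraries. The locus is GC-poor (37.6%) and was at 0.12 and 0.16 in Tph2+/+ and Tph2-/- mice. A second called locus lay close by, and both together spanned 13.3 kb. Near Gm48970 on chromosome 14, 29.9 kb from the start of Spry2, a growth factor signalling inhibitor, the log2 fold change was -0.85 (SE 0.19).

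The locus near Gm9348 on chromosome 14 (chr14:110984865-110985502), whose nearest protein-coding start is that of Slitrk6, a neuronal membrane protein, held 1.84, 2.17 and 3.74 CPM in C and 0.470, 1.22 and 1.76 in MS. Every MS library lay below every C library (log2 fold change -1.09, SE 0.25). The same held for an intron of the zinc finger gene Zfp804b (chr5:7055141-7055703), with 1.94, 2.41 and 3.19 CPM in C and 0.561, 1.11 and 1.65 in MS (-1.11, SE 0.26). This locus has 34.5% GC and 1 CpG in 563 bp, and its fold changes in Tph2+/+ and Tph2-/- mice were 0.07 and -0.03.

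Tmtc4 (a noncoding exon, -1.21), the long noncoding gene A830009L08Rik (an intron, -0.996), 9630028H03Rik (an intron, -0.71), Chst8, a carbohydrate sulfotransferase (an intron, -0.81), and intergenic loci near Nmd3, a ribosome export factor (-1.19), Disc1, a scaffold protein of neurons (-0.99), and Gm34016 (-0.93) completed the group of 12. Near Disc1 (chr8:125303399-125304114, 41.5 kb from the gene) C libraries held 2.15, 2.71 and 4.86 CPM and MS libraries 0.432, 1.59 and 2.86, with 7 of 8 MS libraries below all C libraries. Of the 12, 4 had the same sign in Tph2+/+ and 6 in Tph2-/- mice, and Galnt16 was the only one with an unadjusted p under 0.05 there.

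**Figure D4:**
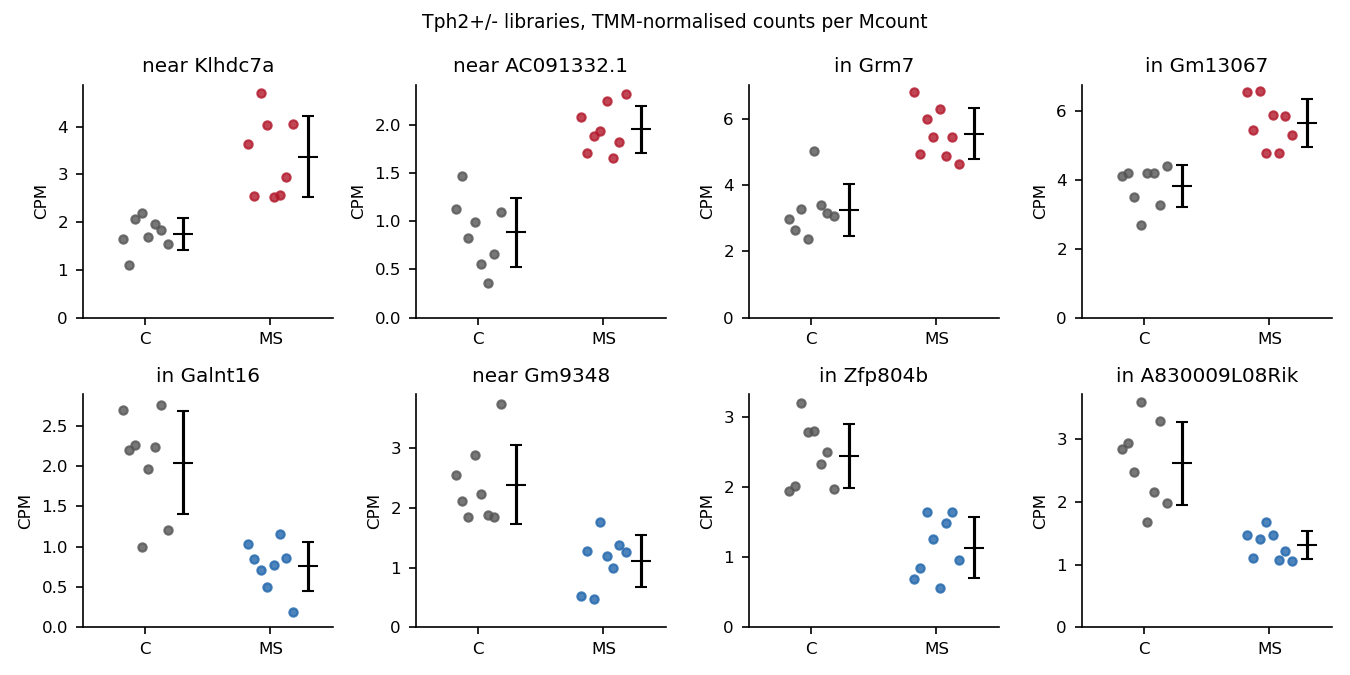
CPM of each Tph2+/- library at 4 loci called higher (top) and 4 called lower (bottom) in MS, with the mean and SD of each group. Groups do not overlap near Klhdc7a, near AC091332.1, in Gm13067, near Gm9348 and in Zfp804b, and overlap in Grm7, Galnt16 and A830009L08Rik, where 5, 6 and 7 MS libraries lie beyond all C libraries.

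Among the loci called higher, the smallest p lay 21.9 kb from Klhdc7a, a kelch domain gene (chr4:139989955-139990786). C libraries held 1.10, 1.76 and 2.19 CPM and MS libraries 2.52, 3.28 and 4.70, and the groups did not overlap. The log2 fold change was 0.93 (SE 0.21, unadjusted p of 2.82e-05), with 0.69 in Tph2-/- mice (unadjusted p of 0.00185) and 0.12 in Tph2+/+ mice (unadjusted p of 0.559).

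An intron of Grm7, a presynaptic metabotropic glutamate receptor (chr6:111013145-111014219), held 2.39, 3.12 and 5.04 CPM in C and 4.63, 5.45 and 6.82 in MS. All but 1 C library, replicate 5, lay below all MS libraries, and the fold change was 0.79 (SE 0.19) with 0.28 and 0.25 in Tph2+/+ and Tph2-/- mice. Repeats cover 69.3% of this Grm7 locus, so its reads may not all be assigned to the right place. Near AC091332.1 on chromosome 17 C libraries held 0.359, 0.910 and 1.47 CPM and MS libraries 1.65, 1.91 and 2.32, again without overlap (1.11, SE 0.28). In an intron of Gm13067 the groups also stood apart, with 2.69, 4.16 and 4.40 CPM in C and 4.79, 5.66 and 6.58 in MS (0.56, SE 0.15).

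The largest fold change of all called loci, 3.51 (SE 0.77), was in an intron of Hdac9, which encodes a class IIa histone deacetylase (chr12:34073298-34074097). It rested on few libraries. C libraries held 0, 0.148 and 1.18 CPM and MS libraries 0.248, 0.605 and 14.5, where MS replicate 8 gave the 14.5 and MS replicate 2 the next value of 4.68. Without MS replicate 8 the fold change was 2.24. Repeats cover 86.6% of this locus, and its counts ranged from 0 to 150 over the 16 libraries.

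Other loci of this group of 12 were near the transcription factor gene Sp2 (0.82), in Lyrm9 (0.69), in Gm20388 (0.75), in introns of Plxnd1, a semaphorin receptor (0.61), and Eya2, a transcriptional coactivator (0.81), and in an untranslated exon of Cilp2, an extracellular matrix protein (0.58). The locus near Sp2 held 1.24, 1.69 and 2.38 CPM in C and 2.31, 3.10 and 3.91 in MS and was at 0.50 in Tph2+/+ mice (unadjusted p of 0.0117). Of the 12 higher loci, 8 had the same sign in Tph2+/+ and 7 in Tph2-/- mice, 3 and 2 of them with an unadjusted p under 0.05.

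**Figure D5:**
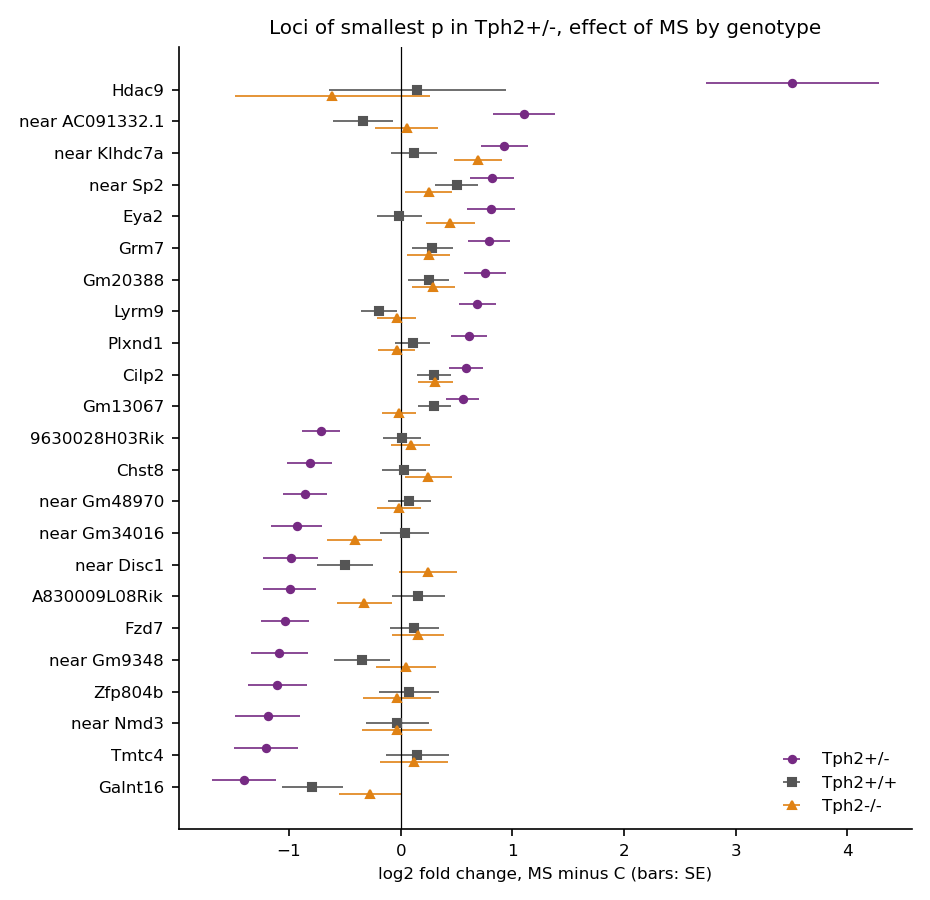
Log2 fold change of MS against C with its SE at 23 of the 24 loci of smallest p in Tph2+/- mice, in each of the 3 genotypes. The Tph2+/- values chose the loci and lie from -1.40 to 3.51, while those of Tph2+/+ lie between -0.79 and 0.50 and those of Tph2-/- between -0.61 and 0.69.

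In all, 31 loci (0.0165%) had no overlap between the 8 MS and 8 C values, 10 higher (0.00533%) and 21 lower (0.0112%) in MS, and 7 and 17 of them were also called. Beside those above, the named ones were an intergenic locus near 1700120C14Rik, with 2.20, 2.51 and 3.96 CPM in C and 0.672, 1.28 and 2.04 in MS (-0.96, SE 0.24), and one near Gm20617, with 3.02, 3.61 and 4.18 CPM in C and 1.47, 2.39 and 2.68 in MS (-0.71, SE 0.18). Repeats make up 98.8% of the locus near Gm20617. Of the 12870 regroupings of 8 against 8 libraries, a single regrouping separates the groups fully in a given direction. Over 187695 loci, some loci without overlap are therefore expected without any change, and the 31 found are not shown to exceed that number. Absence of overlap, here or at the loci above, does not by itself show that a locus differs.

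Loci close to gene starts were small in number. Higher in MS were loci 333 bp from Ppara, a fatty acid receptor of the nucleus (0.57, SE 0.16), in a coding exon of the predicted gene Gm11569 (0.88), over the start of Serpina11, a serpin (0.66), and 951 bp from the start of 1700007K13Rik (0.58). Near Ppara C libraries held 2.38, 3.91 and 5.20 CPM and MS libraries 4.45, 6.11 and 6.94, with 6 of 8 MS libraries above all C libraries. Lower were loci at the starts of 4932414N04Rik (-0.73), Gm10801 (-0.31), Pdcl2 (-0.56) and 41 bp from Notch4, a receptor of vascular cells (-0.59).

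Gm10801 and the neighbouring Gm10800 on chromosome 2 were the called loci of highest counts. Gm10800 (chr2:98665728-98667843) held 25340, 31589 and 43582 CPM in C and 23325, 26372 and 36025 in MS (log2 fold change -0.25, SE 0.09). Gm10801 was at -0.31 (SE 0.09). Both are GC-poor (36.01 and 36.6%), and with the GC offset the values were -0.08 and -0.15 (unadjusted p of 0.380 and 0.0989). In Tph2+/+ mice Gm10800 went the other way, at 0.29 (unadjusted p of 0.00288). The widest called locus, 4182 bp near Abcg3, held 13.2, 16.04 and 19.5 CPM in C and 11.2, 13.04 and 14.8 in MS (-0.32, SE 0.11).

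Called loci rarely lay side by side. With gaps of at most 100 kb, runs of 2 called loci of a direction were found 26 times higher and 35 times lower, and 3 runs were longer. The longest held 4 loci called higher in the predicted gene Gm20388 on chromosome 8 (chr8:123584963-123647411), among 26 loci whose median was 0.24, with 0.23 in Tph2+/+ and 0.24 in Tph2-/- mice. Its first locus held 2.20, 2.59 and 3.55 CPM in C and 2.70, 4.53 and 7.95 in MS, where MS replicate 1 gave the highest value, and 87.6% of it is repeated sequence. Reads of such copies may not be assigned to 1 place.

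A run of 3 higher loci on chromosome 17 (chr17:31616763-31709246) covered coding exons of Cbs, an enzyme of the homocysteine pathway (0.62), and U2af1, a splicing factor (0.66), and a locus near AC090881.1 (0.83). The 24 loci inside it had a median of 0.06. A run of 3 lower loci on chromosome 1 (chr1:181704292-181832676) covered 2 introns of Dnah14, a dynein heavy chain (-0.56 and -0.69), and a coding exon of Lbr, the lamin B receptor (-0.55), in a stretch of 34 loci with a median of 0.02.

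Genes of 16 lists were then read by role, counting loci inside a gene or within 5 kb of it, against 0.779% called over all loci. Several of the list loci named below lost the unadjusted p under 0.01 with the GC offset or when single libraries were left out. In the serotonin list 1 of 115 loci was called. It lies in an intron of Ddc, the decarboxylase that makes serotonin and dopamine, with 2.99, 4.79 and 7.69 CPM in C and 1.90, 3.78 and 4.12 in MS (-0.48, SE 0.18), the 1.90 being MS replicate 1. With the GC offset its unadjusted p was 0.0109, and 4 of the 16 fits without a single library lost the call. Ddc is also on the imprinted list. Tph2 itself holds 15 loci, of which 0 were called and 1 had an unadjusted p under 0.05 (-0.38, SE 0.19), and their median was -0.03.

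In the glucocorticoid and corticotropin stress axis 1 locus was called (0.971% of the list), in an intron of the mineralocorticoid receptor gene Nr3c2 (-0.60, SE 0.22), with 1.35, 2.94 and 3.98 CPM in C and 1.18, 1.72 and 2.59 in MS. The Nr3c2 locus lost the call in 11 of the 16 fits without a single library, and also with the GC offset. The list of oxytocin, neurotrophin and peptide genes had 1 call (0.633% of its loci), higher at Vipr1, a receptor for vasoactive intestinal peptide (0.65). At Vipr1 the call was lost in 7 of the 16 fits without a single library, and also with the GC offset. Dopamine and noradrenaline genes had 0 calls in 93 loci, with 6 at an unadjusted p under 0.05, and the locus of smallest p lay in Adra1b, an adrenergic receptor (0.47, unadjusted p of 0.0186). Activity-induced early genes had 1 call in 41 loci, higher at a coding exon of Egr1 (0.55, SE 0.18).

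Glutamate genes had 5 calls in 432 loci (1.16%). Of these 3 were higher, among them those at the receptors Grm7 and Grik5 (0.89), and 2 lower, at Grm8 (-0.91) and Grik1 (-0.93). Grm8, a relative of Grm7 at presynaptic sites, held 1.32, 2.19 and 2.80 CPM in C and 0.660, 1.05 and 1.93 in MS, at a GC content of 34.6%. This Grm8 locus has 3 CpGs in 593 bp. GABA genes had 1 call in 120 loci.

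Voltage-gated channel genes had 7 calls in 409 loci (1.71%), 6 of them lower. The lower ones were at the sodium channel genes Scn1a (-0.89), Scn3a (-0.58) and Scn8a (-0.50), the calcium channel genes Cacna1c (-0.83) and Cacna1d (-0.67) and the potassium channel gene Kcnh1 (-0.80), and the higher one was at Cacna1e (0.78). The Cacna1e locus has 2 CpGs in 516 bp and lost the call in 10 of the 16 fits without a single library. At Cacna1d C libraries held 1.97, 2.67 and 3.64 CPM and MS libraries 1.29, 1.73 and 2.47, with 6 MS libraries below all C libraries. The median over all loci of this list was 0.04, against 0.00 over all loci.

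Axon guidance and adhesion genes had 6 calls in 636 loci, 5 of them lower. These were at the receptors Robo1 (-0.50), Robo2 (-0.62) and Dscam (-0.61), the semaphorin gene Sema5a (-0.51) and the ligand gene Slit3 (-0.71), and a second locus of Slit3 was higher (0.64). The 2 Slit3 loci both lie in introns, and the lower one has 39.8% GC and the higher one 46.9%. With the GC offset the lower one had an unadjusted p of 0.0174.

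DNA methylation genes had 1 call in 99 loci, higher at a coding exon of Aire 6 bp from the start of Dnmt3l, a cofactor of the de novo methyltransferases (0.65, SE 0.22). Imprinted genes had 3 calls in 183 loci, all lower, at Ddc and at 2 loci of Inpp5f, a phosphoinositide phosphatase (-0.73 and -0.70). Developmental transcription factors had 2 calls in 250 loci, both lower in introns of Foxp1 (-0.59 and -0.50). With the GC offset the unadjusted p was 0.0121 at Dnmt3l, 0.0116 at the Inpp5f locus of -0.73 and 0.0116 at the Foxp1 locus of -0.59. These lost the call in 5, 7 and 6 of the 16 fits without a single library. The Inpp5f locus of -0.70 lost it in 4 and the Foxp1 locus of -0.50 in 9.

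Cell type markers gave few calls. Neuron markers had 0 calls in 80 loci and 0 at an unadjusted p under 0.05. Oligodendrocyte and myelin markers had 0 calls in 97 loci, with 4 below an unadjusted p of 0.05, the lowest of them in an intron of Sox10 (-0.41). Astrocyte markers had 1 call in 74 loci, lower at Gja1, a gap junction gene (-0.80), and microglia and endothelial markers 1 in 166, higher at Tek, a receptor of endothelial cells (0.96). Both loci are poor in CpGs, with 4 in 741 bp at Gja1 and 3 in 381 bp at Tek. The Tek locus lost the call in 8 of the 16 fits without a single library. With 0 to 7 calls per list, no list is described as standing apart from the rest of the table.

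Whether the called loci moved alike in other genotypes was read from the libraries of those genotypes. They lie outside the contrast that chose the loci, but share its estimate of spread, and may share its litters. Their MS and C libraries are likewise set apart by sample number. Fitted on the Tph2+/- libraries alone, 1848 loci were called, of which 1333 were among the 1462. In Tph2+/+ mice 63.1% of the 1462 loci had the same sign of the MS effect (95% Wilson interval 60.6 to 65.6%), and over all loci 55.5% did. In Tph2-/- mice the share was also 63.1% (60.6 to 65.6%), and over all loci 56.7%. The intervals treat loci as independent, which they are not. The sizes were small, since the median log2 fold change of loci called higher in Tph2+/- mice was 0.06 in Tph2+/+ and 0.08 in Tph2-/- mice, and that of loci called lower -0.06 and -0.09. With the GC offset in the model the shares were 59.7 and 59.2%, against 54.8 and 54.9% over all loci.

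An unadjusted p under 0.05 in both other genotypes, in the same direction, was found at 15 of the called loci (1.03%), 7 higher and 8 lower. Of the loci not called, 1179 (0.633%) met the same condition. With the GC offset 4 of the 15, near or in Fam107a, Cldn34d, Gm21413 and Fam69c, no longer had an unadjusted p under 0.01 in Tph2+/- mice. An intergenic locus near Gm49581 (chr16:57261411-57263246) held 3.63, 4.83 and 6.18 CPM in C and 4.85, 7.69 and 8.38 in MS, with fold changes of 0.59, 0.42 and 0.42 in Tph2+/-, Tph2+/+ and Tph2-/- mice. In an intron of Cntfr, the receptor gene for ciliary neurotrophic factor (chr4:41681337-41682307), they were 0.54, 0.49 and 0.86. Near Gm24471 on chromosome 13 (chr13:99790541-99791580) they were -0.50, -0.37 and -0.66, and near Gm49554 on chromosome 16 (chr16:3120309-3121037) -0.96, -0.76 and -0.62.

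Cntfr held 1.35, 2.95 and 4.47 CPM in C and 3.19, 4.16 and 5.89 in MS in Tph2+/- mice, and the locus near Gm49554 1.29, 1.87 and 4.60 in C and 0.346, 0.969 and 2.12 in MS. In both the groups overlapped. The other loci of the 15 include introns of Gm8579, Fam69c and Cldn34d and intergenic loci near Gm9195, Gm8041, Cyp2b19, Gm5471, Gm5983, Fam107a and Gm21413, and a noncoding exon of Gm6689.

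The difference of the MS effect between genotypes was tested in the same model. Tph2+/- minus Tph2+/+ gave 1175 called loci (0.626%), 586 with the higher value in Tph2+/- mice (0.312%) and 589 with the lower (0.314%), and Tph2+/- minus Tph2-/- gave 1121 (0.597%). No locus had an adjusted p under 0.05 by edgeR in either, with 6968 (3.71%) and 7013 (3.74%) at an unadjusted p under 0.05. At Fzd7 the difference between Tph2+/- and Tph2+/+ mice was -1.16 on the log2 scale (unadjusted p of 0.000257), a value that the choice of the locus favours. No locus was thus shown to respond to MS in Tph2+/- mice alone.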

How the data were processed

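Methylated DNA of 48 amygdala samples was captured by MBD protein and sequenced as paired reads of 50 bp. The deposited table holds raw counts per locus, which the authors made by aligning reads with Bowtie2 (2.1.0), calling peaks with MACS and counting reads in merged peaks with DiffBind (2.0.9), per the labels and the study's methods. The GRCm38 build was checked against all 21 chromosome lengths. Of the counts in a library, 57.1 to 71.6% were even, so both mates of a pair may be counted and counts are not all independent. The intervals printed are over loci, not over animals.

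Counts were modelled with edgeR (4.0.16, R 4.3.3; TMM scaling, trended dispersion, robust quasi-likelihood test) on 46 libraries with 1 term per group, where the study used DESeq2. The study left out 2 Tph2-/- MS libraries that the labels do not name, and the 2 with the lowest totals were left out here. Calls follow the study's limits (unadjusted p under 0.01, log2 fold change beyond 0.2), with Benjamini-Hochberg adjustment over all 187695 loci and no filter on low counts. Library measures were tested by 2-sided exact permutation, with 12870 regroupings for 8 against 8 libraries. There were 6435 without MS replicate 1, 3003 in Tph2-/- mice and 924 without sample numbers 18 to 26 and 42 to 48. Groups come from the labels. The edgeR p-values rest on a spread estimated over all 46 libraries, and the permutation p-values on the libraries compared. Both treat mice as independent, and since littermates within a group cannot be identified, p-values may be too small.

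On simulated data for this comparison (187695 loci), a log2 change of 1 given to 100 loci was called at 97 of them by the study's limits and at 55 by the adjusted p. For 100 loci given 0.6, these were 66 and 8. Unchanged loci were called in 1813 cases (0.967%), and 3 at the adjusted p. The simulated counts were independent, with no dependence on GC content, no library standing apart and no litters. Fewer changes may therefore be recovered in the real data.

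Named loci were the 12 called loci of smallest p per direction, the 4 per direction within 1 kb of a protein-coding start, up to 2 per direction in each of the 16 gene lists (or the 1 of smallest p), the called loci of highest mean count and largest width, those of the 3 longest runs, up to 6 without overlap between groups, and the Tph2 locus of smallest p. The other called loci of the lists and the loci shared by all genotypes were named after their values were seen. Some loci that the rule selects are not reported here. GC and CpG slopes and the shares of GC deciles were added after seeing the data. Members, lists and rules were chosen with earlier results of these data known. Lists held 381 genes, of which 1 did not match the annotation. Alternatives were DESeq2 (1.42.0), limma voom (3.58.1), other scalings, filters and sample sets, a replicate block, and each library left out in turn.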

Additional observations from a re-analysis of the deposited data

Results flagged for a closer look

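In 178 groups of 8 libraries, for library measures and for the CPM of named loci, the highest or lowest library was tested against the others by Dixon's criterion. It stood apart in 21 groups (11.8%). Chance flags about 1 in 20 groups, or 8.90 here. The groups are not independent, since 1 library can stand apart in several.

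Among shares of counts, C replicate 5 was high in coding exons (9.72%) and MS replicate 3 in the widest decile of loci (54.1%). MS replicate 1 was low in introns (45.7%) and high in the CpG-densest decile (26.8%), on chromosome X (2.72%) and in the GC-richest decile (15.9%), and its CpG slope was 0.149.

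Among loci called higher in MS, MS replicate 8 held 14.5 CPM and C replicate 7 held 1.18 CPM at Hdac9, and C replicate 5 held 5.04 CPM at Grm7. MS replicate 1 was the highest at 3 loci of Gm20388 (7.95, 6.31 and 7.95 CPM). MS replicate 3 was the highest at 1700007K13Rik (7.17 CPM) and near AC090881.1 (4.70 CPM).

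Among loci lower in MS, MS replicate 1 was the lowest at Ddc (1.90 CPM), C replicate 7 the highest at Dnah14 (5.65 CPM) and the lowest at Tph2 (1.45 CPM), C replicate 2 the lowest at Lbr (1.56 CPM) and C replicate 1 the highest near 1700120C14Rik (3.96 CPM).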

How the results depend on the processing

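Across 16 other settings 1156 to 1848 loci were called, and none gave a locus at the adjusted p. DESeq2 called 1775 and limma voom 1842. Leaving out each library in turn gave 1178 (without MS replicate 1) to 1560 (without MS replicate 7) calls, 38.1 to 45.04% of them higher, and 59.8 to 74.6% of the 1462 loci were among them. The split of directions depended on scaling. With total counts in place of TMM, 1089 were higher and 394 lower (73.4% higher, median over all loci 0.04), where TMM gave 41.2% higher. With loess offsets the percent higher was 50.2 (abundance), 49.2 (CpG density) and 50.0 (GC content). In the GC-richest decile 90.8% of calls were higher with the abundance offset. With the GC offset, which removes dependence on GC content by construction, that share was 44.2%, 51.5% of calls in the GC-poorest decile were lower, and same-sign shares at called loci were 59.7% in Tph2+/+ and 59.2% in Tph2-/- mice. The GC offset was chosen after seeing the data, and of the 66 named loci that were called 17 lost the call with it, against 22 without the early numbered MS libraries. With total counts, 11 did. The 17 included loci named above at Nr3c2, Vipr1, Ddc, Gja1, Dnmt3l, Inpp5f, Foxp1 and Slit3, and loci of the runs at Gm20388, Cbs, Dnah14 and Lbr. The cause was not tested.

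Without loci over 0.5% of counts, differences between MS and C in library shares took the other sign for coding exons (0.113 percentage points), untranslated exons (-0.00476), noncoding exons (-0.0149), loci within 1 kb of a start (0.0209), the widest decile (0.629), the repeat-rich decile (0.551) and chromosome Y (-0.0208). Without sample numbers 18 to 26 and 42 to 48 noncoding exons did so too (-0.0226). A minimum mean count of 10 gave no value for 1 named locus, and leaving out loci over 0.5% gave none for 2.

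The labels number replicates 1 to 8 in both groups. Same-numbered libraries correlated at -0.00756 to 0.0951, and 2 of 8 correlated best with their own number. They were not treated as pairs in the main fit. Whether they shared any handling cannot be read from these correlations. With the replicate number as a block 1564 loci were called, 657 higher and 907 lower, and 0 at the adjusted p. A median of 27 counts per locus and a standard error of 0.22 limit detection to the larger differences.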
